A study of Mus musculus with 598 samples.

Results

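The comparison set 85 knockout cells against 83 wild type cells from mouse embryos at E6.75, an embryonic age within gastrulation, together 28.1% of the 598 cells in the series. All had been sorted for Mesp1-GFP, a fluorescent reporter, and each deposited library is 1 cell. The labels call the groups KO and WT and name neither the targeted gene nor an allele, strain, embryo, litter or pool. Both groups carry the reporter, and only reporter-positive cells were sampled, so the number of such cells per embryo was not measured. The cells were selected by reads: a cell was taken when it had a read in at least 5 of 8 genes, namely Dusp15, Foxe1, Hoxd13, Kcnk12, Pou3f3, Six3, Sox3 and Vax1. Every selected cell had all 8, and no cell outside the set had more than 4. The labels do not name this library set. All 85 knockout cells fell into it, and the wild type cells it took are those with label numbers 1 to 83. The 89 wild type cells at E6.75 outside it were left out, and the 8 genes that chose the cells are not results.

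Mesp1 is a basic helix-loop-helix transcription factor that turns on as mesoderm forms at the primitive streak, and its descendants include heart, blood vessel, head and extraembryonic mesoderm. Cells that pass through the streak give up epithelial junctions, lower the genes of the epiblast, the epithelium they came from, and take up a mesenchymal form. Nodal, FGF and WNT ligands pattern the streak, and Notch ligands, VEGF and PDGF receptors and apelin signalling mark the mesoderm that follows.

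With no embryo or litter named, each group was treated as 1 sample. No test was run, no p-value is given, and every SD below is the spread over 85 knockout or 83 wild type cells, not an error of the group. Levels are log2(CPM + 1) per cell, where CPM scales the reads of a gene to the total on genes in that cell. A difference is the knockout mean minus the wild type mean on that scale, which understates the change of low genes. A gene was described when it had a read in at least 20% of the cells of either group (13060 genes). A gene was called lower or higher at a difference of at least 1. Of all genes described, 1.07% were lower and 0.819% higher, the shares to set beside each count of list members below.

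Median depth was 940161 reads in knockout cells (101895 to 7082534) and 689539 in wild type cells (104528 to 6633770). Thinning every cell to 100000 reads left medians of 6900 and 6911 genes read. The 95 genes described that told the library sets apart in wild type differed between knockout and wild type cells by -0.70 to 0.22, with a median of -0.20. The cells of either genotype fell into classes by the summed CPM of the Y-linked genes Eif2s3y, Uty, Kdm5d and Ddx3y. No knockout cell lay between 27.1 and 53.4 CPM and no wild type cell between 31.1 and 67.1 CPM, so cells above 40 CPM were called Y-high and the rest Y-low, a limit set after these values were seen. Y-high cells were 38 of 85 knockout cells (44.7%, exact Clopper-Pearson 33.9 to 55.9%) and 45 of 83 wild type cells (54.2%, 42.9 to 65.2%). These intervals count cells as independent. The class goes with the embryo, so they leave out the spread between embryos. Median Xist was 0 CPM in the Y-high cells of either genotype, and 76.6 and 61.4 CPM in knockout and wild type Y-low cells. Y-high and Y-low cells come from different embryos, so most differences are also given within each class, the Y-high value first. That is a split of embryos and not a replicate.

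The labels were checked against Mesp1 itself (ENSMUSG00000030544, GRCm38 chromosome 7, 79792241 to 79793788, minus strand, protein-coding). Its CPM per cell ran from 0 through a median of 7.50 to 41.1 in knockout cells, and from 8.89 through 364 to 1324 in wild type cells. No knockout cell reached the wild type median, and the highest knockout cell stood at 11.3% of it. The knockout median was 2.06% of the wild type median, so the labels and Mesp1 go the same way. On the log2 scale Mesp1 was at 2.57 ± 1.65 in knockout and 8.22 ± 1.31 in wild type cells, a difference of -5.64 (-5.13 in Y-high and -6.11 in Y-low cells). Of knockout cells, 82.4% had a read of Mesp1, and 44.7% (33.9 to 55.9%) did after thinning. A comparable low level was seen for Y-linked genes in Y-low cells, whose median was 1.14% of the Y-high median in knockout and 0.62% in wild type, with the highest knockout Y-low cell at 8.58%. The origin of such low reads was not tested. Mesp2, the neighbouring gene and a related factor of somite formation, was at 3.05 ± 2.77 against 4.32 ± 2.74, a difference of -1.28 that was -2.21 in Y-high and -0.38 in Y-low cells.

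The genes with the largest differences were Mesp1, Fgf3, Lefty2 and Kdr among those lower in knockout cells, and Rps2-ps13, Cldn6 and Fgf5 among those higher. Of 13060 genes described, 140 were lower in knockout cells (1.07%) and 0.819% were higher, and 18 and 9 of these differed by at least 2. The median gene differed by 0.0087. Protein-coding genes made up 95.7% of the lower and 93.5% of the higher genes. Within the Y classes, 95% of the lower and 95.3% of the higher genes had the same sign in both. Past 1 in both were 64 and 40 genes (45.7% and 37.4%). The classes divide the same cells on which these genes were called, so the choice of genes favours a shared sign. No share for all genes described is set beside these, and agreement between embryos was not tested. The Y classes of a single genotype also differed: Y-low and Y-high means were at least 1 apart for 684 genes in wild type and 1128 genes in knockout cells, in smaller groups of 38 to 47 cells. Genotype, embryo and genetic background cannot be told apart in this design.

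**Figure D1:**
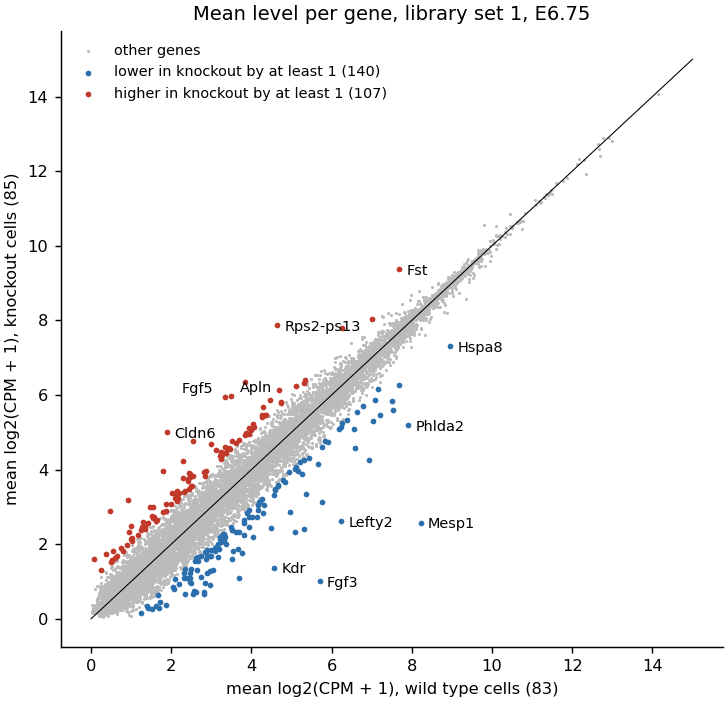
Mean log2(CPM + 1) per gene in the 83 wild type cells (x axis) and the 85 knockout cells (y axis) for the 13060 genes described, with the line of equality. The 140 genes lower by at least 1 (blue) are led by Mesp1 and Fgf3, and the higher genes (red, 0.819% of all described) include Cldn6, Fgf5 and Apln.

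Fgf3, an FGF ligand of the streak and early mesoderm, was the gene with the largest difference after Mesp1 (chromosome 7, 144838083 to 144844436, plus strand). Its level ran from 0 through a median of 0 to 7.73 in knockout cells and from 0 through 6.94 to 10.1 in wild type cells. Only 3 of 85 knockout cells reached the wild type median, so the groups overlapped in their tails but hardly in their centres. Fgf3 means were 1.0 ± 1.79 and 5.70 ± 2.91, a difference of -4.70 that was -5.25 in Y-high and -4.21 in Y-low cells. After thinning, the share of cells with an Fgf3 read was 11.8% in knockout (5.79 to 20.6%) and 81.9% in wild type (71.9 to 89.5%). Fgf15, another FGF ligand, was at a median of 1.18 in knockout and 6.36 in wild type cells, a difference of -2.77 with -2.71 and -2.77 in the Y classes.

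FGF ligands did not move together. Fgf5, an epiblast FGF, went the other way, from 0 through a median of 6.51 to 9.80 in knockout cells and from 0 through 2.19 to 8.67 in wild type cells. Of the 83 wild type cells, 18 reached the knockout median of Fgf5. Its difference was 2.62, with 1.28 in Y-high and 4.0 in Y-low cells. Fgf8, which streak cells need to move away, was read in all 85 knockout cells and ran from 4.03 through 7.87 to 10.2 there, against 0 through 6.7 to 9.07 in wild type cells. The Fgf8 difference was 1.54 (1.08 and 2.05 in the Y classes). Of the 13 FGF ligands and receptors, 9 were described, with 2 lower and 2 higher and a median difference of -0.12 (0.04 and -0.32). None of the 11 FGF and ERK feedback genes was past the limit in either direction, led by Spry4 at 0.80 (1.34 and 0.14) and Dusp4 at -0.63 (-0.96 and -0.58), both inhibitors of the ERK pathway.

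Among Nodal pathway genes, Nodal and Lefty2 lay on opposite sides. Lefty1 and Cer1, on the same list, were above 0 like Nodal but within the limit. They differed by 0.32 (0.23 and 0.47 in the Y classes) and 0.505 (0.36 and 0.56). Lefty2, a secreted inhibitor of Nodal made by mesoderm (chromosome 1, 180893108 to 180899103, plus strand), ran from 0 through a median of 1.51 to 8.55 in knockout and from 0 through 6.84 to 11.5 in wild type cells. Only 9 knockout cells reached the wild type median of Lefty2. Its difference was -3.63, with -3.97 in Y-high and -3.29 in Y-low cells. Nodal, the ligand that starts and maintains the streak (chromosome 10, 61417972 to 61425338, plus strand), ran from 0 through 5.74 to 9.03 in knockout and from 0 through 1.23 to 7.97 in wild type cells. Of wild type cells, 15 reached the knockout median of Nodal. The Nodal difference was 2.23, and 2.54 and 2.22 within the Y classes. After thinning, a Nodal read was present in 74.1% of the knockout (63.5 to 83%) and 45.8% of the wild type cells (34.8 to 57.1%). Fst, which binds and blocks activin, ran from 4.35 through 9.61 to 11.2 in knockout and from 0.90 through 8.10 to 10.3 in wild type cells, a difference of 1.68 (1.08 and 2.30). All 13 Nodal genes were described, 1 lower and 3 higher, with a median of -0.07 (0.23 and -0.05).

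Of the WNT ligands and R-spondins, 3 were lower and the other 5 described stayed within the limit. Wnt5a, a ligand of the noncanonical pathway, had a median of 0 in knockout and 2.45 in wild type cells and highest levels of 6.16 and 7.62, a difference of -2.11 (-1.65 and -2.70 in the Y classes). The thinned share of cells with a Wnt5a read was 8.24% (3.38 to 16.2%) in knockout and 48.2% (37.1 to 59.4%) in wild type. Wnt2, a WNT ligand, had medians of 0 and 1.87 and a difference of -2.16 (-1.83 and -2.65). Rspo3, which strengthens WNT signals, differed by -1.19 (-1.79 and -0.83). Of 12 WNT ligands and R-spondins, 8 were described, with these 3 lower, 0 higher and a median of -0.01 (0.32 and -0.49). Among 12 described WNT targets and modulators, Lef1, a nuclear effector of WNT, was lower at -1.17 (-0.95 and -1.45). Ror2, a receptor for Wnt5a, was higher at 1.5 (2.03 and 1.13). Dkk1, a secreted WNT inhibitor, was higher at 1.42, which was 0.20 in Y-high and 2.45 in Y-low cells. Axin2 and Tcf7 were within the limit over all cells at 0.81 (1.10 and 0.80) and 0.27 (0.12 and 0.48). The median of that list was 0.31 (0.16 and 0.34), with 9 of the 12 above 0 and 3 below.

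Over all cells, the Notch genes past the limit were all lower. Dll3, a Notch ligand of presomitic mesoderm (chromosome 7, 28293553 to 28302238, minus strand), ran from 0 through a median of 3.22 to 7.81 in knockout and from 0 through 6.56 to 9.90 in wild type cells. Of knockout cells, 8 reached the wild type median of Dll3, and its difference was -2.63 (-2.98 and -2.41). Dll1, a second Notch ligand, was read in 7 of 85 knockout and 33 of 83 wild type cells, with a difference of -1.39 (-1.78 and -1.04). The receptor Notch1 differed by -1.53 (-1.78 and -1.40), and Hey1, a target of Notch, by -1.09 (-1.75 and -0.66). Of 12 Notch genes, 9 were described, with these 4 lower and 0 higher. By sign alone, 5 were below 0 and 4 above 0. The list median was -0.35, with -1.41 in Y-high and -0.66 in Y-low cells. Notch2, a further receptor, differed by 0.02, with -1.41 in Y-high and 1.57 in Y-low cells. The ligand Jag1 differed by 0.56 (-0.34 and 1.44). Hes1 and Nrarp, listed as targets like Hey1, were above 0 and within the limit at 0.51 (0.41 and 0.71) and 0.23 (0.25 and 0.17).

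Of 8 VEGF and PDGF genes described, the receptors Kdr and Pdgfra were lower. Kdr, a VEGF receptor of endothelial and heart progenitors (chromosome 5, 75932827 to 75978458, minus strand), ran from 0 through a median of 0 to 7.67 in knockout and from 0 through 5.49 to 9.47 in wild type cells. Only 8 knockout cells reached the wild type median of Kdr, and its difference was -3.20 (-3.02 and -3.67 in the Y classes). After thinning, 23.5% of the knockout (15 to 34%) and 66.3% of the wild type cells (55 to 76.3%) had a Kdr read. Pdgfra, a PDGF receptor of mesoderm (chromosome 5, 75152292 to 75198215, plus strand), ran from 0 through 1.0 to 8.34 and from 0 through 6.37 to 8.57. Its difference was -2.92 (-2.18 and -3.64), with 9 knockout cells at or above the wild type median. The other 6 were within the limit, among them the ligand Pdgfa at 0.62 (1.46 and -0.06) and the receptor Flt1 at 0.40 (-0.42 and 1.26), and the median was -0.13 (-0.37 and -0.40).

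The apelin ligand and its receptor differed in opposite directions, each by more in the Y-high cells. Apln, the ligand (chromosome X, 48025146 to 48034853, minus strand), ran from 0 through 6.67 to 9.61 in knockout and from 0 through 3.15 to 9.33 in wild type cells. Its difference was 2.50, with 3.72 in Y-high and 1.49 in Y-low cells. Aplnr, its receptor, had medians of 4.93 and 6.56 and a difference of -1.51, with -2.87 in Y-high and -0.33 in Y-low cells. Rasgrp3, a Ras activator reported as induced by Mesp1, had medians of 0 and 2.77 and a difference of -2.07 (-2.66 and -1.63). Robo1, a guidance receptor for Slit proteins, differed by -1.29, with -2.67 in Y-high and -0.07 in Y-low cells. Of 17 apelin, chemokine and guidance genes described, 3 were lower and 1 was higher, with a median of -0.46 (-0.30 and -0.23).

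**Figure D2:**
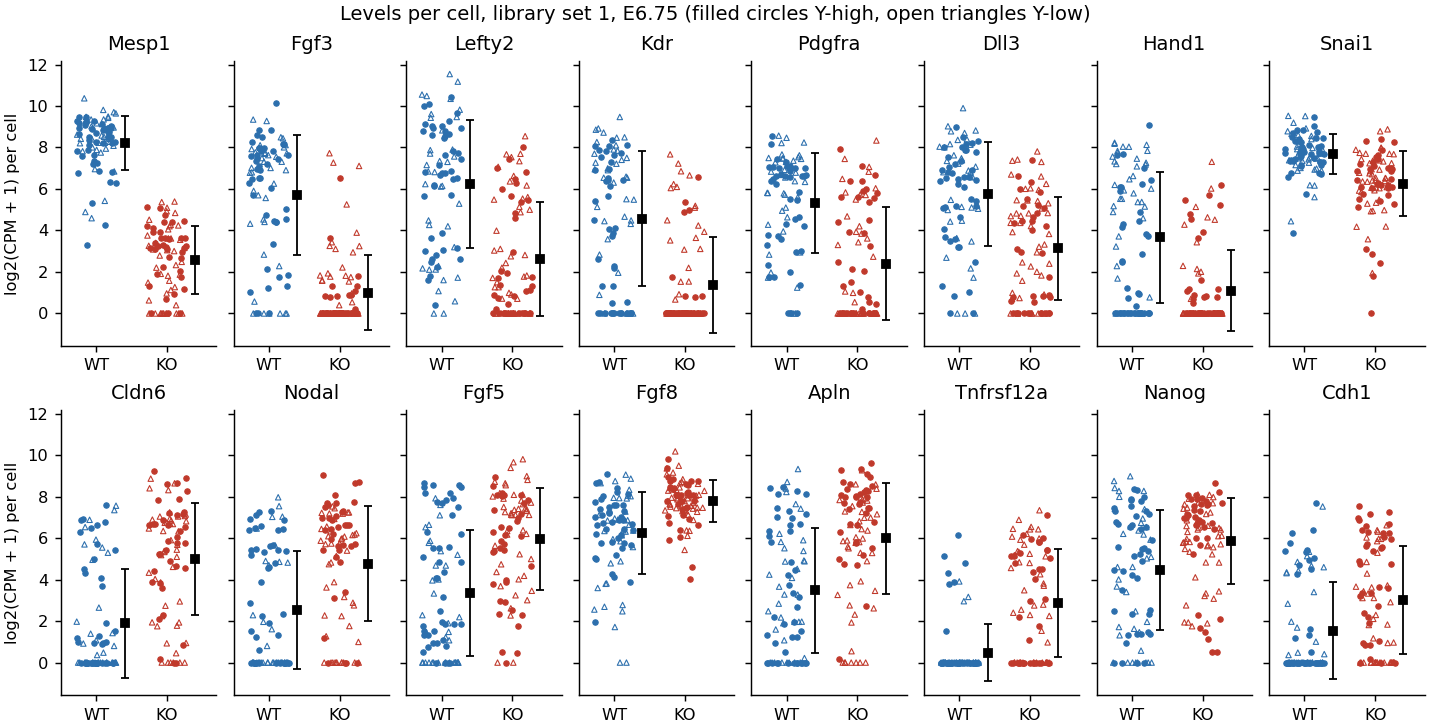
Log2(CPM + 1) per cell of 16 genes in wild type (blue) and knockout (red) cells, with filled circles for Y-high and open triangles for Y-low cells, and squares with bars for the mean and SD over cells. The upper 8 genes are lower in knockout cells, with Mesp1 nearly separate from wild type and the others overlapping, and the lower 8 are higher, with Fgf8 medians of 7.87 and 6.7.

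Promoters of genes at both ends of the comparison are shown because Mesp1 belongs to a family of factors that bind the E-box, CANNTG. The 250 bases before the RefSeq start (GRCm38.p6) are printed 5′ to 3′ on the gene's strand, with E-boxes in capitals. Fgf3 (chr7:144838362-144838611, plus) has none, Kdr (chr5:75978456-75978705, minus) has 1, Dll3 (chr7:28301786-28302035, minus) has 2 and Cldn6 (chr17:23679115-23679364, plus) has 1. The RefSeq and GENCODE starts of a gene can differ. The Fgf3 and Dll3 stretches lie wholly within the GENCODE coordinates of these genes, and the Kdr and Cldn6 stretches cross the GENCODE starts of theirs.
Fgf3: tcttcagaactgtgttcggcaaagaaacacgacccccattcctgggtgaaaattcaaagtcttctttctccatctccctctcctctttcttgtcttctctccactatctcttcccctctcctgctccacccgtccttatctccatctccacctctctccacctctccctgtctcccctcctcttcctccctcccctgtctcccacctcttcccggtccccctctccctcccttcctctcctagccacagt
Kdr: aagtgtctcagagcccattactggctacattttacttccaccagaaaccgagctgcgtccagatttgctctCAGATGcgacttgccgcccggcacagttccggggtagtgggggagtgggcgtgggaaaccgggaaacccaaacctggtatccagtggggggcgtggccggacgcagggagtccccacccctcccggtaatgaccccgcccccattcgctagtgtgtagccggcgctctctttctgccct
Dll3: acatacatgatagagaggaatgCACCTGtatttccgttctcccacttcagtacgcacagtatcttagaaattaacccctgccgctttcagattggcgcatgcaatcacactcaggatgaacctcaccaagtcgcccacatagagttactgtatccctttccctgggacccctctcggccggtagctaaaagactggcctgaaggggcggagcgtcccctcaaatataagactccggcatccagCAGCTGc
Cldn6: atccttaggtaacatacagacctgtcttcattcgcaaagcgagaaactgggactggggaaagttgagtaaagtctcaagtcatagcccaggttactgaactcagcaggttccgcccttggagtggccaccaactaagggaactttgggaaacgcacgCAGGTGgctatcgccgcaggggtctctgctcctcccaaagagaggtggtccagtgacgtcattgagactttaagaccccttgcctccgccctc
CANNTG reads the same on the opposite strand, so 1 strand was searched. An E-box was held by 58 of the lower genes with an entry (57.4%), against 47 of 84 higher genes (55.95%), 4777 of 8685 genes described (55%) and 17848 of all 27025 entries (66.04%). The shares for the lower and higher genes lay near that of all genes described. A match is a description of letters and not a bound site.

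Among nascent mesoderm genes, the transcription factors Mesp1, Mesp2, Tbx6 and Snai1 were lower, while others on the same list were within the limit. Of 14 nascent mesoderm genes, 13 were described, with 8 lower, 0 higher and a median of -1.28 (-1.78 and -0.83 in the Y classes), and the list holds Mesp1 itself. Tbx6, a T-box factor of paraxial mesoderm, was read in 18 of 85 knockout and 52 of 83 wild type cells and differed by -1.69 (-2.26 and -1.16). Phlda2, an imprinted growth regulator, ran from 0 through 5.69 to 9.91 in knockout and from 2.13 through 8.33 to 11.5 in wild type cells, a difference of -2.73 (-2.32 and -3.29). Of the list members shared with the streak list, Eomes, a T-box factor of streak and mesoderm, differed by 0.21 (0.20 and 0.24), and Mixl1, a streak homeobox factor, by 0.77 (0.60 and 0.93). T, or Brachyury, had medians of 8.38 and 7.80 and a difference of 0.81, with 0.12 in Y-high and 1.51 in Y-low cells. All 14 primitive streak genes were described, with 0 lower and 4 higher and a median of 0.57 (0.41 and 0.96). The 4 were Nodal, Fst, Fgf8 and Gsc, a homeobox factor of the anterior streak at 1.46 (0.72 and 2.26).

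Of 10 mesenchymal genes described, 4 were lower, and of 13 epithelial genes, 5 were higher. Snai1, a repressor of epithelial genes, ran from 0 through 6.42 to 8.88 in knockout and from 3.89 through 7.72 to 9.53 in wild type cells. Of knockout cells, 10 reached the wild type median of Snai1, and its difference was -1.42 (-1.64 and -1.24). Cdh11, a mesenchymal cadherin, differed by -1.48 (-1.83 and -1.26) and Zeb2, a repressor of Cdh1, by -1.01 (-1.51 and -0.60). With Pdgfra these were the 4 mesenchymal genes that were lower, 0 were higher, and the median was -0.74 (-1.15 and -0.41). By sign, 7 of the 10 were below 0 and 3 above 0. The 3 were Vim at 0.45 (0.58 and 0.24), Twist1 at 0.22 (0.58 and -0.15) and Mmp14 at 0.06 (0.44 and -0.08).

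Cldn6, a claudin of tight junctions in embryonic epithelia (chromosome 17, 23679249 to 23682446, plus strand), ran from 0 through 5.74 to 9.22 in knockout and from 0 through 0 to 7.61 in wild type cells. Of the 83 wild type cells, 12 reached the knockout median of Cldn6. Its difference was 3.10, with 3.48 in Y-high and 2.83 in Y-low cells. The thinned share of cells with a Cldn6 read was 74.1% (63.5 to 83%) in knockout and 28.9% (19.5 to 39.9%) in wild type. Cdh1, or E-cadherin, had medians of 3.11 and 0 and a difference of 1.45, with 2.62 in Y-high and 0.52 in Y-low cells. Cldn7, another claudin, differed by 1.19 (1.80 and 0.71), and Esrp1, a splicing factor of epithelia, by 1.10 (0.62 and 1.68). Of 18 epithelial genes, 13 were described, all 13 above 0 and 5 past the limit, with a median of 0.64 in all cells, 0.62 in Y-high and 0.64 in Y-low cells.

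Of 16 epiblast genes, 15 were described, 14 above 0, with 6 higher, 0 lower and a median of 0.61 (0.84 and 0.49). Nanog, a pluripotency factor kept in the posterior epiblast, ran from 0.49 through 6.51 to 8.66 in knockout and from 0 through 5.10 to 8.98 in wild type cells, a difference of 1.40 (1.37 and 1.52). Prdm14, a repressor known from pluripotent and germ cells, was read in 44 of 85 and 23 of 83 cells and differed by 1.40 (1.52 and 1.45). L1td1, an RNA-binding protein of pluripotent cells, differed by 1.33, with 2.24 in Y-high and 0.49 in Y-low cells. Pou5f1, which both epiblast and streak express, differed by 0.22, with 0.93 and -0.42.

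Some genes of later mesoderm were lower, several of them with a larger difference in the Y-low cells, though no difference between the classes was tested. Other genes of the same lists differed by more in the Y-high cells and were within the limit over all cells. Among them were Hand2 at -0.39 (-1.22 and 0.25), Foxf1 at -0.30 (-1.31 and 0.53) and Runx1 at -0.23 (-0.74 and 0.21). Hand1, a factor of extraembryonic and heart mesoderm (chromosome 11, 57828705 to 57832818, minus strand), ran from 0 through 0 to 7.31 in knockout and from 0 through 4.18 to 9.07 in wild type cells. Its difference of -2.58 was -0.92 in Y-high and -4.46 in Y-low cells. Hand1 stood at 5.41 ± 2.62 in wild type Y-low and 2.22 ± 2.82 in wild type Y-high cells, and at 0.95 ± 1.89 and 1.29 ± 2.0 in the knockout classes, so the classes differed more in wild type than in knockout cells. Msx2, a homeobox target of BMP, differed by -1.40 (-0.24 and -2.64), and Myl7, a myosin light chain of the heart, by -1.26 (-0.35 and -2.37). Tbx3, a T-box factor, was within the limit at -0.85, with 0.59 and -2.24. Gata4, a zinc finger factor of heart and endoderm, had medians of 6.35 and 7.27 and differed by -1.20, with -1.48 and -1.15. Etv2, a master factor of blood vessels, had medians of 2.62 and 3.94, highest levels of 9.45 and 11.2 and a difference of -1.42 (-1.12 and -1.91).

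The list counts here stand beside 1.07% lower and 0.819% higher of all genes described. As lists, extraembryonic mesoderm had 10 of 12 genes described, 3 lower and 0 higher, with a median of -0.65 (-0.48 and -0.61 in the Y classes). Paraxial and presomitic mesoderm had 6 of 12, with 3 lower, 0 higher and -0.87 (-1.11 and -0.66). Of these 6 genes, 5 were below 0 and Msgn1 was above 0 at 0.40 (0.30 and 0.42). Cardiac genes had 10 of 15, with 2 lower, 0 higher and -0.35 (-0.48 and -0.0069). Haemato-endothelial genes had 5 of 15, with 2 lower, 0 higher and -0.23 (-0.74 and -0.10). Tal1, Lmo2, Fli1 and Gata2 were among those not described. Anterior and pharyngeal mesoderm had 5 of 12, with 0 in either direction and 0.22 (0.35 and 0.40). Genes reported in earlier work as induced by Mesp1 had 16 of 20 described, with 6 lower and 2 higher, Ror2 and Dkk1, and a median of -0.43 (-0.85 and -0.37). The matrix list had 13, with Vcan, a matrix proteoglycan, at -1.90 (-1.67 and -2.16) and Hs3st3b1, a heparan sulphate enzyme, at -1.91 (-2.33 and -1.61), and a median of -0.36 (-0.56 and -0.31). Of 13 imprinted growth genes, Phlda2, H19 at -1.49 (-1.09 and -2.02) and Cdkn1c at -1.06 (-0.70 and -1.35) were lower, 0 were higher, and the median was -0.43, with -0.02 in Y-high and -0.89 in Y-low cells. BMP genes had 13, with Msx2 and Bambi, a pseudoreceptor at -1.09 (-1.57 and -0.75), lower and a median of -0.34 (-0.10 and -0.47). Because several genes stand on more than 1 list, these medians are not independent of each other.

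**Figure D3:**
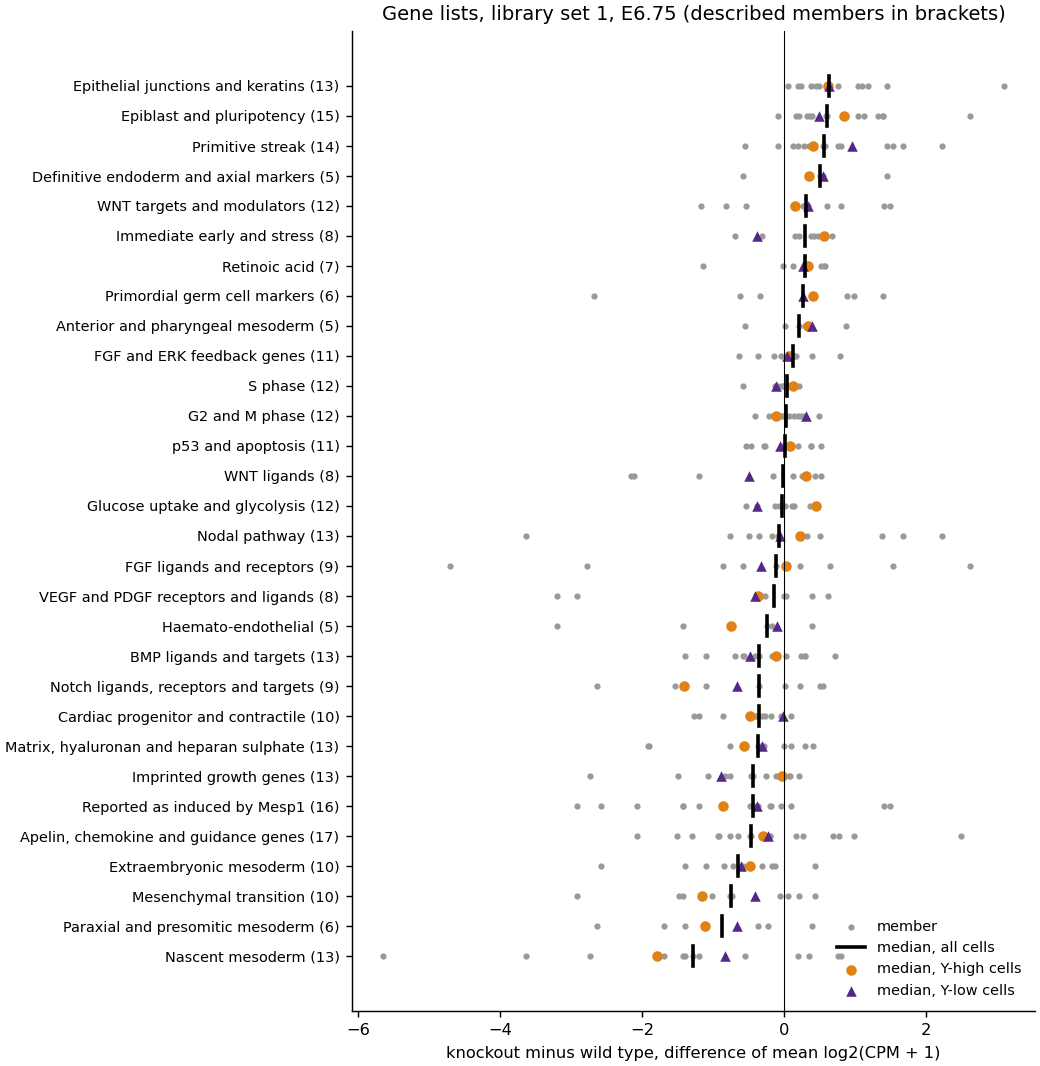
Knockout minus wild type difference of mean log2(CPM + 1) for each described member of 30 gene lists (grey points), with the list median over all cells (black bar), over Y-high cells (circle) and over Y-low cells (triangle). Epithelial, epiblast and streak medians lie to the right of 0 at 0.64, 0.61 and 0.57, and nascent mesoderm lies farthest left at -1.28.

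Of the remaining genes at the ends of the ranking, several had the same direction in either class. Ifitm1, an interferon-inducible membrane protein of early mesoderm and germ cells, ran from 0 through 4.66 to 8.55 in knockout and from 3.78 through 7.14 to 9.05 in wild type cells, a difference of -2.68 (-2.54 and -2.90). Gfpt2, an enzyme of hexosamine synthesis, differed by -2.05, with -0.78 in Y-high and -3.35 in Y-low cells. Tnfrsf12a, the receptor for TWEAK, was read in 53 of 85 knockout and 10 of 83 wild type cells and differed by 2.40 (2.02 and 2.78). It lies near Cldn6 on chromosome 17, from 23675445 to 23677468 on the minus strand. Nr1h5, a nuclear receptor, differed by 2.15, with 4.15 in Y-high and -0.04 in Y-low cells. It was at 0.29 ± 1.0 in wild type Y-high cells and between 3.55 and 4.44 in the other 3 classes. Chmp4c, an ESCRT subunit, differed by 1.94 (1.77 and 2.32), Rbm47, an RNA-binding protein, by 1.68 (0.89 and 2.49), Tpbg, a membrane glycoprotein, by 1.54 (1.29 and 1.76), and Arhgef26, an exchange factor for small GTPases, by 1.48 (2.49 and 0.59). Pald1 differed by 1.47 (1.63 and 1.44) and Sec22a, of the vesicle transport machinery, by 1.43 (1.27 and 1.65).

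**Figure D4:**
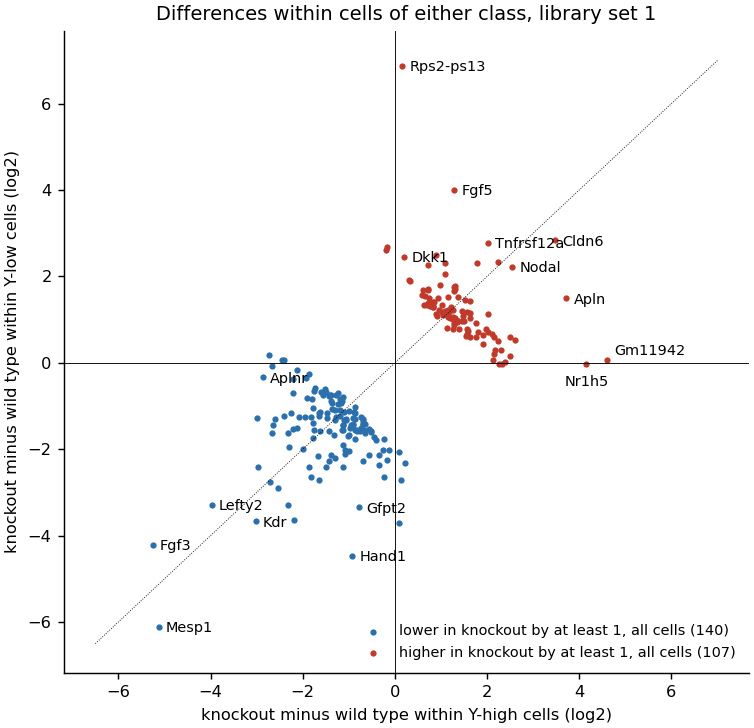
Knockout minus wild type difference within Y-high cells (x axis) and within Y-low cells (y axis) for the genes lower (blue, 140) and higher (red) over all cells, with the line of equality. Mesp1, Fgf3, Lefty2 and Kdr lie low on both axes, Hand1 and Gfpt2 mainly on the y axis, and Nr1h5 and Gm11942 mainly on the x axis.

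Some genes and pseudogenes had a narrow spread over cells and levels that went with genotype or class, and their counts are uncertain because near-identical copies can share reads. Rps2-ps13, a processed pseudogene of a ribosomal protein (chromosome X, 52898588 to 52899469, plus strand), had the largest positive difference at 3.23, which was 0.16 in Y-high and 6.88 in Y-low cells. Its median was 7.91 in knockout Y-low, 7.94 in knockout Y-high and 7.84 in wild type Y-high cells, but 0.53 in wild type Y-low cells. Gm11942, also a processed pseudogene, had medians of 6.40, 6.18 and 6.35 in 3 classes and 1.95 in wild type Y-high cells. Rpsa-ps10 went with genotype in both classes: it ran from 4.21 through 5.46 to 6.69 in knockout and from 6.26 through 7.2 to 8.92 in wild type cells, with no knockout cell at the wild type median. Hspa8, a constitutive chaperone with processed copies, ran from 4.37 through 7.38 to 8.13 and from 7.63 through 8.99 to 9.98, a difference of -1.65 (-1.76 and -1.56). Gm11814 had medians of 4.81 and 6.96 in knockout Y-high and Y-low cells and 7.08 and 8.04 in the wild type classes. Tdg, a DNA glycosylase of demethylation, had a wider range than Rpsa-ps10 in either genotype. It ran from 0 through 3.49 to 6.12 in knockout and from 0 through 0.59 to 3.56 in wild type cells. Its difference was 2.26 (2.23 and 2.34), with 1 wild type cell at the knockout median. Apart from Rps2-ps13 and Tdg, which the ranking took, these were chosen after their values were seen. Whether sequence differences between embryos set their counts was not tested.

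**Figure D5:**
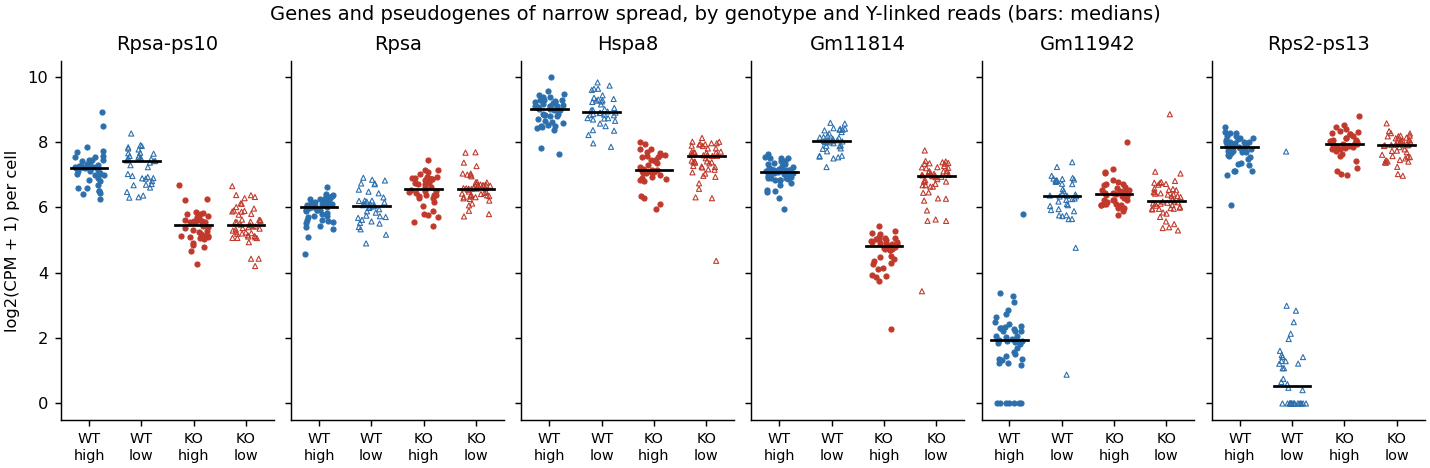
Log2(CPM + 1) per cell of 6 genes and pseudogenes in wild type (blue) and knockout (red) cells of the Y-high and Y-low classes, with bars at the medians. Rpsa-ps10 medians are 5.46 in knockout and 7.21 to 7.42 in wild type classes, while Rps2-ps13 stands apart in wild type Y-low cells at 0.53.

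By chromosome, the share of described genes that were lower was 1.94% on chromosome 7 (18 of 927), which holds Mesp1, Mesp2, Fgf3, Fgf15, Dll3, Phlda2, Ifitm1, Tbx6 and Etv2. It was 2.32% on chromosome 14 and 2.19% on chromosome 18, against 1.07% of all genes described. On chromosome X, 10 of 641 (1.56%) were higher, against 0.819%. Linkage to the targeted locus was not tested.

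Markers of other cells varied in level between lists. None of 12 adult bone marrow genes, included because the protocol text in the labels speaks of bone marrow, and none of 8 erythroid genes was read in enough cells to be described. Of 11 visceral endoderm markers, 1 was described, and their summed CPM had a median of 0 in either group, with highest cells of 87.9 in knockout and 95.9 in wild type. Of 9 extraembryonic ectoderm markers, 4 were described and 0 called, with summed medians of 28.1 and 17.8 CPM. Definitive endoderm and axial markers had 5 of 11 described, with 1 higher, Gsc, and summed medians of 110.5 and 50.8 CPM, and 4 and 5 of the 11 below 1 CPM over the group. Germ cell markers had 6 of 9 described, with Prdm14 higher and Ifitm1 lower, and a highest summed level of 962 CPM in knockout and 843 in wild type cells. The neural and surface ectoderm list includes Sox3 and Six3, which are among the genes that chose the cells, so its summed level is not given as a result. Sox1, Sox3 and Six3 also tell the library sets apart, and the list had 0 called of 4 described, these 3 among them. The S phase and G2/M lists, with 12 genes each, had 0 called and medians of 0.04 and 0.03, and p53 and apoptosis genes 0 of 11 and 0.02.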

How the data were processed

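Single mouse cells sorted for a Mesp1-GFP reporter were sequenced as 1 library each, by a whole-transcript method with Nextera XT libraries, per the labels' protocols. The authors deposited whole-number read counts by gene and cell. They used GSNAP, HTSeq 0.5.3p3 and build mm10, per the submitters' processing notes; parameters, annotation release and strand setting were not given in the sources used here. Nextera XT kits mark neither molecules nor strand, so duplicate reads were counted and overlapping genes on opposite strands can share reads. GENCODE M21 (GRCm38, the assembly of mm10) gave a symbol for 40254 of 40912 gene identifiers, and the coordinates.

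Cells needed at least 100000 reads and 2000 genes, which removed 0 cells. No doublet caller was run. CPM was scaled to the total on genes with 1 CPM added. Genes needed a read in 20% of cells of either group. Shares were taken after thinning each cell to 100000 reads; their exact 95% intervals cover counting error only. The cells, the 37 gene lists and the rules were chosen with earlier results of these data known.

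Named were Mesp1 and, per direction, the 15 genes with the largest difference of means whose summed CPM differed at least 2-fold and that had a read in at least 50% of cells of the higher group. Mitochondrial, Y-linked and set-separating genes (shares with a read at least 70 percentage points apart between sets at both stages), Xist and predicted models were left out. Up to 4 members per list with a mean of at least 1 were added. Other named genes were chosen after their values were seen, and some genes that the rule took are not reported here.

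The alternatives were 10 CPM added, TMM factors of edgeR 4.0.16, size factors of DESeq2 1.42.0 (scaling only), library sizes without mitochondrial and set-separating genes, thinning, summed reads, medians over cells, stricter cells (500000 reads and 4000 genes), Y-linked reads above or at most 3 CPM, wild type cells by label number or of both sets, and no gene filter or one of 50%. Splits at 40 CPM were chosen after seeing the data. The steps were tested on simulated counts. Python 3.11.15, numpy 2.4.6, pandas 2.3.3 and scipy 1.17.1 were used, with R 4.3.3 for the factors.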

Additional observations from a re-analysis of the deposited data

How the results depend on the processing

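As percent of the 13060 genes described, the lower and higher shares of 1.07 and 0.819% became 0.184 and 0.0766% with 10 CPM added, 4.74 and 2.63% with reads summed over cells, and 4.33 and 4.29% with medians over cells. They became 1.65 and 1.40% in cells with Y-linked reads above 3 CPM, 5.29 and 5.21% in cells with at most 3 CPM, 3.11 and 3.96% above 40 CPM and 4.08 and 2.74% at most 40 CPM. Stricter cells gave 1.62% lower and wild type cells of both sets 7.96%, where the median gene moved to -0.23. With 10 CPM added, 17.1% of the lower genes were also lower and 9.35% of the higher genes also higher. With wild type cells of both sets these shares were 85% and 20.6%. Of the lower genes, 67.9% were also lower with reads summed, 67.9% above 40 CPM and 77.9% at most 40 CPM; of the higher genes, 51.4, 72 and 65.4% were also higher. With reads summed, the medians of Mesp1-induced and of VEGF and PDGF genes moved to -1.20 and -1.14; the latter was -0.999 in cells of at most 3 CPM. With medians over cells the paraxial median was 0 and the germ cell median -0.20. With a filter of 50% of cells, paraxial genes were at -2.16, WNT ligands at -1.19, retinoic acid genes at -0.28 and germ cell markers at -0.34. With no gene filter, retinoic acid was at -0.012 and germ cell markers at -0.089. With both sets, WNT targets were at -0.14, stress genes at -0.032, retinoic acid at -0.00134, germ cell markers at -0.016 and imprinted genes at -1.15. In cells of at most 3 CPM, cardiac genes were at 0.00544 and stress genes at -0.013. Stress genes were at -0.37 in cells of at most 40 CPM, and Notch genes at -1.41 above 40 CPM. Among named genes, Nr1h5 turned to -0.036 in cells of at most 40 CPM, and Pald1 and L1td1 to -0.10 and -0.23 with both sets. Lists needed at least 5 members and a median at least 0.25 from 0 to be said to turn, limits set after their values were seen. The cause of these changes was not tested. No other named gene that was called, and no other list with a median at least 0.25 from 0, changed direction under the alternatives run. No paired analysis was possible because the result comes from no test and the label numbers only number cells. Depth limits the low genes: at 100000 reads, 1 read is worth 10 CPM.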

Other observations

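Wild type cells at E7.25 in the same library set (28.9% of all cells) give the later level of the same genes, on the same log2(CPM + 1) scale. Both comparisons use the same wild type cells at E6.75, so the values are set side by side only. Fgf3 was at 1.0 in knockout and 5.70 in wild type at E6.75, and at 8.22 ± 1.78 (SD over cells) at E7.25. Dll1 was at 0.30, 1.69 and 4.89, Tbx6 at 0.65, 2.35 and 3.76, and Lefty2 at 2.62, 6.25 and 7.90. For these mesoderm genes the knockout mean was the lowest and the E7.25 mean the highest. Kdr, at 1.37, 4.57 and 4.58, had nearly the same mean at the 2 stages in wild type. Nodal was at 4.77 in knockout, 2.54 in wild type at E6.75 and 0.16 ± 0.77 at E7.25. Fgf8 was at 7.80, 6.26 and 2.41 and Fst at 9.37, 7.69 and 5.4. For these the knockout mean was the highest and the E7.25 mean the lowest. Fgf5, at 5.96, 3.34 and 3.44, did not follow that order.

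Some immediate early genes, and the glucose uptake and glycolysis genes except Hk1, differed between knockout and wild type in opposite directions in the Y classes. Egr1, an immediate early transcription factor, differed by 1.82 in Y-high and -0.27 in Y-low cells, and the glucose transporters Slc2a3 and Slc2a1 by 1.85 and -1.09 and by 0.75 and -1.76. Of the 8 described immediate early and stress genes, 4 had the same sign in both classes, namely Fos, Junb, Dnajb1 and Hsp90aa1. Fos differed by 0.53 and 0.44, Junb by -0.18 and -1.20, and the hexokinase Hk1 by -0.74 and -0.04. Slc2a1 was at 8.42 ± 1.35 in knockout and 7.67 ± 1.53 in wild type Y-high cells, and at 7.01 ± 1.95 and 8.78 ± 1.25 in Y-low cells. Of 12 glycolysis genes none was past 1 over all cells, with medians of -0.03 over all cells, 0.45 in Y-high and -0.37 in Y-low cells. All of them except Hk1 had a positive difference in Y-high and a negative difference in Y-low cells, such as Gapdh at 0.51 and -0.51. The immediate early and stress list, with 8 genes described, had medians of 0.30, 0.57 and -0.37. The difference between the classes was not tested.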
